A study of Mus musculus with 8 samples.

Results

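The 4522 regions described here are the narrow sites at gene starts in a chromatin immunoprecipitation (ChIP) peak list from control mouse hepatocytes. Rows of that list with the same chromosome, start and end were taken as 1 region, and a region was kept if it was under 3000 bp wide and had a summit within 1000 bp of the 5' end of a gene in the RNA table (mm10). They were selected on 2 values from the list, width and summit position, so both are given below as descriptions with no test. They make up 26.6% of the 16995 control regions and 27.1% of the 16672 regions under 3000 bp. They touch the starts of 5335 of the 27277 genes in the RNA table, called start genes below. Of the other control regions, 1584 were narrow and near a gene end, 9680 were narrow and inside a gene body, 886 were narrow and outside genes, and 323 were 3000 bp or wider.

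All libraries came from mouse primary hepatocytes, obtained by digestion of the liver in 2 steps, cultured for 24 h and given 100 nM glucagon for 12 h, so no library is free of the hormone. Control cells carried Lcmr1 f/f, the floxed gene, with no Cre named in their label. Knockout cells carried Lcmr1 f/f with albumin-cre, in which the albumin promoter drives Cre and so restricts the deletion to hepatocytes. RNA was sequenced from 3 control and 3 knockout libraries and ChIP from 1 library of each genotype, and no label says that the RNA libraries are separate animals, so the p-values rest on a spread that could be technical. The sample titles name RNA polymerase III (spelled RNA poll III) as the ChIP target, whereas the series design names Lcmr1, the older name of the Mediator subunit Med19. The target is therefore left unnamed below.

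Transcription of protein-coding genes begins when RNA polymerase II is assembled at the promoter with general factors and Mediator, a large complex that bridges DNA-bound activators and the polymerase. After initiation the polymerase often halts a short way inside the gene before elongation factors release it. RNA polymerase III makes short RNAs such as tRNAs, 7SK and vault RNAs, from promoters that mostly lie inside or just upstream of the transcribed sequence. In hepatocytes, glucagon acts through cyclic AMP and CREB on genes of gluconeogenesis and on fast-responding genes.

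Promoter sequences at 8 member regions show the range of elements present at these starts. Tob1, Nabp1, Arl4d, Ube2h and Klf6 are shown because their folds over background were among the 10 highest at protein-coding starts of genes with a proper symbol and their RefSeq start lies within 100 bp of the start in the RNA table. The histone genes Hist1h1e and Hist1h4d and the hepatocyte factor Cebpa are shown because their RNA results are described below, and were chosen after their values were seen. Each runs 5' to 3' on the gene's strand from 100 bases before to 30 bases after the RefSeq start (GRCm38.p6), and capitals mark every match, in either orientation, to TATAAA (the TATA box), GGGCGG (the GC box), CCAAT (the NF-Y box), CACGTG (an E-box) or TGACGTCA (the CREB site).
Tob1 (chr11:94211354-94211483, plus strand): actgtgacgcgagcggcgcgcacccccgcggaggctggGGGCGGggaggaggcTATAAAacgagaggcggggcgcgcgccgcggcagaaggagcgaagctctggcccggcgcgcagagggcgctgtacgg
Nabp1 (chr1:51478370-51478499, minus strand): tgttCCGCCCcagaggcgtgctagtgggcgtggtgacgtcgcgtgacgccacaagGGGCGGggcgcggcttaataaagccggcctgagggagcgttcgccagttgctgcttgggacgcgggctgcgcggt
Arl4d (chr11:101665441-101665570, plus strand): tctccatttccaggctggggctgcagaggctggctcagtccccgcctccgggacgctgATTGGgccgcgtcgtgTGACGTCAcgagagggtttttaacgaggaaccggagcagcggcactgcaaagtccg
Ube2h (chr6:30304510-30304639, minus strand): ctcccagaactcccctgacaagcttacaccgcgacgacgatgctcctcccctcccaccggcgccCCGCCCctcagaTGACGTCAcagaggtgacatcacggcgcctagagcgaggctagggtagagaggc
Klf6 (chr13:5861389-5861518, plus strand): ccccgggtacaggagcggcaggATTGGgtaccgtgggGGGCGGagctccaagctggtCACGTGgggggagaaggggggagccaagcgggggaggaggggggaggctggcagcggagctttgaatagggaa
Hist1h1e (chr13:23622529-23622658, minus strand): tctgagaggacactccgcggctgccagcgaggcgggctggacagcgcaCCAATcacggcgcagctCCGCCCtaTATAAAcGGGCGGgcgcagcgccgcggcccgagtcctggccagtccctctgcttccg
Hist1h4d (chr13:23581468-23581597, plus strand): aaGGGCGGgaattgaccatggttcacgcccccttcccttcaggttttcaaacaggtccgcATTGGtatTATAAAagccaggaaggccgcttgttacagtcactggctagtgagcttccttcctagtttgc
Cebpa (chr7:35119193-35119322, plus strand): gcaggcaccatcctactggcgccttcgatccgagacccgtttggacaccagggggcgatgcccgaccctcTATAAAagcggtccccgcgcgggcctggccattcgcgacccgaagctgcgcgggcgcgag

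Counted with -1 as the base just before the start, TATAAA began at -30 in Cebpa, at -32 in Hist1h4d, at -27 in Hist1h1e and at -47 in Tob1. TGACGTCA, the full cyclic AMP response element, began at -26 in Arl4d and at -24 in Ube2h. The CCAAT box began at -52 in Hist1h1e, -40 in Hist1h4d, -42 in Arl4d and -78 in Klf6. Nabp1 held GGGCGG at -96 and -45 and none of the other 4 motifs. A match is a description of letters, not of binding.

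The regions were short, with a median width of 386 bp, quartiles of 292 and 524 bp, and a range from 228 to 2994 bp. A single summit was called in 4136 of them (91.5%), 2 summits in 329, and 3 or more in 57, with 6 as the most. The fold over background at the highest start summit, which is the peak caller's own value in the authors' list and is used here only to rank within that list, had a median of 5.96, quartiles of 4.76 and 7.90, and a range from 1.56 to 32.8. Its -log10 q ranged from 1.31 to 92.7 with a median of 6.34. Narrow regions at gene ends had a median top fold of 4.80 and a median width of 403 bp, those in gene bodies 4.73 and 370 bp, and those outside genes 4.63 and 336 bp. These are values of 1 library and were not tested.

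Summits lay mostly just inside the gene. For each region, the highest summit within 1000 bp of a start was placed relative to the nearest start. The median position was 60 bp downstream of the start, with quartiles at -29 and 135 bp, and 69.6% of summits were downstream. A summit 0 to 200 bp downstream was found in 2381 regions (52.7%), and 1 to 200 bp upstream in 865 (19.1%). Within 250 bp of a start lay 3468 regions (76.7%). For the 3944 regions whose nearest gene is protein coding, the median was 63 bp downstream. At the limits of the rule, Gdf15 with 2994 bp and Id3 with 2876 bp were the widest regions kept, while Actb with 3128 bp and Podn with 3070 bp fell just outside. Mtfr1 with a summit at 1000 bp was just inside the distance limit and Cp with 1002 bp just outside.

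**Figure D1:**
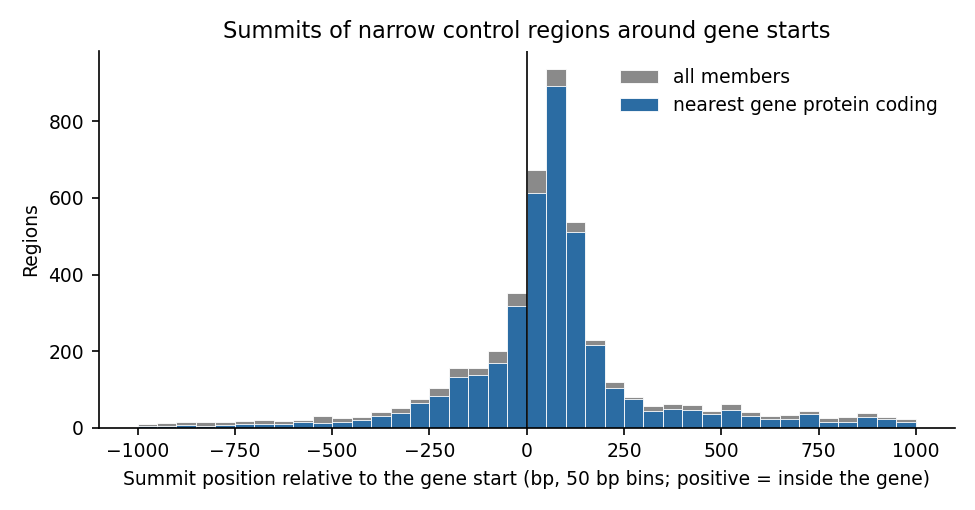
Number of narrow control regions (vertical axis) by the position of each region's highest start summit relative to the nearest gene start. Bins are 50 bp, with positive values inside the gene. Blue bars are regions whose nearest gene is protein coding, grey bars all 4522. The highest bars lie between 0 and 150 bp downstream, around the median of 60 bp, and the tails toward 1000 bp are low.

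Leaving out genes known only by a predicted-gene or clone number and those on chromosome 18, the highest fold at a protein-coding start was that of Jund (ENSMUSG00000071076, chromosome 8, 70698949 to 70700616), which encodes an AP-1 subunit. Its region was 2488 bp wide with 5 summits, and the top summit, 17 bp inside the gene, had a fold of 32.8. Among the genes so kept, Tob1, an antiproliferative factor of the BTG family, followed with 27.2 at -3 bp. Nabp1, a single-stranded DNA-binding protein, had 26.1 at 13 bp. Arl4d, a small GTPase, had 25.7 at 77 bp. Ube2h, a ubiquitin-conjugating enzyme, had 25.6 at 58 bp. Hist1h4c, which encodes histone H4, had 25.4 at 27 bp. Hhex, a homeobox factor of liver development, had 25.1 at 41 bp. Klf6, an immediate early zinc finger factor, had 22.8 at -283 bp. Rsrp1 and Foxo3, a forkhead factor inhibited by insulin signalling, both had 22.6, at 52 and 104 bp. In 9 of these 10 named genes the summit lay within 104 bp of the start, Klf6 being the other.

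Protein-coding genes were the nearest start for 87.2% of the regions, beside 62.8% of all genes in the table. A member region was present at 4421 of 17132 protein-coding genes (25.8%), at 274 antisense RNA genes (17.3% of that class), at 183 lincRNA genes (9.8%) and at 45 of 104 genes of the bidirectional promoter lncRNA class (43.3%). Of the 5335 start genes, 4697 (88%) passed the filter on low RNA counts, beside 55.5% of all genes. Among protein-coding genes, 33% of the 13033 that passed the filter and 2.85% of the 4099 that did not had a member region. The filter uses counts, which grow with transcript length, and no length was used here. The 638 start genes below the filter comprised 150 antisense RNA genes, 117 protein-coding genes, 98 lincRNA genes, 91 genes of the TEC class and 41 miRNA genes among others, and 195 of them had at most 5 counts in the 6 libraries together.

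Many regions served more than 1 start. A region touched 1 gene start in 3450 cases, 2 in 1044 and 3 or 4 in 28, and 1020 (22.6%) had starts on both strands. Protein-coding starts on both strands were found at 491 regions, which held 496 such pairs. In 323 pairs the genes pointed away from each other, with a median of 135 bp between the starts, and 257 of them (79.6%) had starts within 300 bp. Both genes of 283 of these divergent pairs were tested for RNA. In 8 pairs both genes fell in the knockout, in 4 both rose, in 7 1 gene rose and the other fell, in 100 only 1 gene was called and in 164 neither was. Counted singly, 17% of tested start genes fell and 9.43% rose, beside 13.0% and 12.6% of all tested genes. Whether the calls of paired genes go together was not tested. No source used here says whether reads were counted by strand, so overlapping ends of such neighbours could not be separated.

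In all, 63 small RNA genes were the nearest start to a member region. The highest fold was 20.8 at Rnu1a1, a U1 spliceosomal RNA gene, with the summit 112 bp downstream of the start. The predicted small RNA genes Gm22068 and Gm22513 had folds of 12.5 and 11.3, with summits 79 and 119 bp downstream. Mir5620, Mir1938 and Mirlet7c-2 had folds of 14.8, 12.9 and 10.99, with summits at -236, -323 and -855 bp from the annotated hairpin start. Counts of these 6 genes were near 0 in every RNA library, at most 0.162 CPM (read counts scaled to a common library size), and none was tested.

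Summits were also counted at genes known as RNA polymerase III templates. Of 408 nuclear tRNA genes in RefSeq, 3 (0.735%) had a control summit within 100 bp and 21 (5.15%) within 1000 bp. In the knockout list these numbers were 0 and 1 (0.245%). The nearest control summit was 388 bp from Rn7sk (7SK RNA, a regulator of elongation), 451 bp from Rny1 (a Y RNA) and 140 bp from Vaultrc5 (a vault RNA), with folds of 7.92, 5.25 and 7.15. These 3 of the 4 such transcripts in the RNA table had a member region within 1000 bp, beside 5335 of all 27277 genes. Rn7s1 (7SL RNA), taken from RefSeq, had a summit of a member region 259 bp away. For Rmrp and Rpph1, the RNA parts of 2 RNA-processing enzymes, the nearest summit was 50487 and 117042 bp away, for Rny3 6907 bp and for Rnu6 424008 bp. In these peak lists, absence of a summit means only that none passed the authors' calling limit.

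The promoters at member regions were rich in CpG. A RefSeq window of 300 bases, 250 before to 50 after the start, was matched by symbol for 3593 of the 4421 protein-coding start genes (81.3%) and for 13375 of all 17132 (78.1%). The median ratio of observed to expected CpG was 0.833 at start genes, 0.701 over all windows and 0.697 at tested genes with no member region. A ratio of at least 0.6 was found in 85.4%, 60.7% and 61.1% of these windows. Median GC content was 63.7%, 59.3% and 58.7%. Only 2904 of the matched start genes had their RefSeq start within 100 bp of the start in the RNA table, so a window can lie beside the region.

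**Figure D2:**
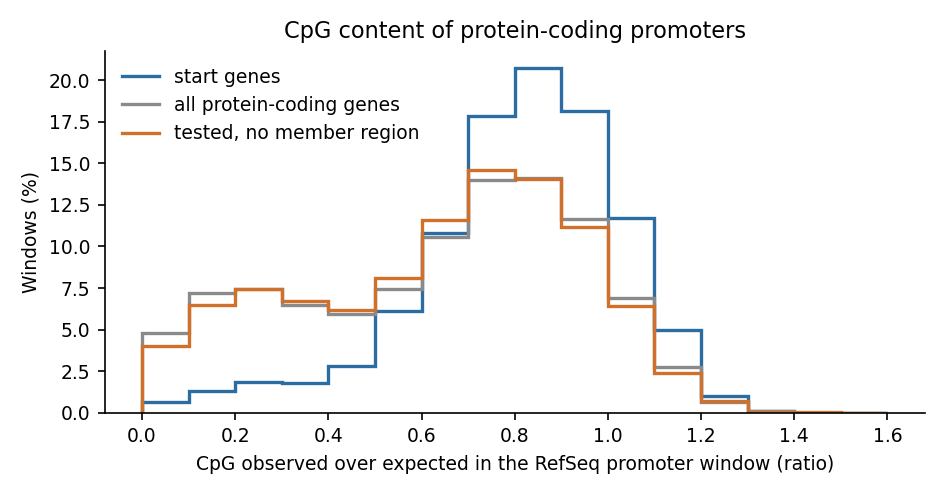
Share of protein-coding promoter windows (percent, vertical axis) by the ratio of observed to expected CpG (horizontal axis, bins of 0.1) for start genes (blue), all protein-coding genes (grey) and tested genes with no member region (orange). The low-CpG shoulder of the grey and orange lines is small in the blue line, whose median is 0.833.

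Short motifs were searched on both strands of the same windows, and none of the motifs contains another. GGGCGG, the GC box bound by SP and KLF factors, was in 75.8% of start gene windows and 57% of all windows. CCAAT, bound by NF-Y, was in 44% and 38.5%. CCGGAAG, an ETS site, was in 19.7% and 14.8%. CACGTG, an E-box, was in 12.2% and 9.2%. GCGCATGC, an NRF1 site, was in 7.24% and 4.49%. TGACGTCA, the CREB site, was in 4.4% and 2.85%, and AAGATGGCG, a YY1 site, in 3.26% and 2.5%. At tested genes with no member region the 7 shares were, in the same order, 56.1%, 36%, 16.6%, 8.72%, 4.1%, 2.42% and 2.97%. These 7 motifs were all more frequent at start genes than over all windows, and 5 of them have a C or G at most positions, as do the windows themselves, whose GC share was not adjusted for.
The motifs that follow were less frequent at start genes, except the last. TATAAA was in 6.21% and 9.2%, but in 9.38% of start genes in the top quartile class of fold. With its first base 20 to 40 bases upstream on the gene's strand it was in 1.36%, 1.91% and 3.3% of the same sets. At tested genes with no member region TATAAA was in 8.21% of windows, and in 1.4% at that position. TTGCNNAA, a C/EBP site, was in 7.77% and 9.08%. CTCTTTCC, a pyrimidine-rich start motif, was in 2.39% and 3.14%. TGGCNNAGT, the A box of RNA polymerase III genes, was in 3.53% and 3.69%. GGTTCGANT, the B box, was in 0.334% and 0.254%. These shares describe the windows and were not tested.

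In the knockout ChIP list most member regions had no counterpart. That list holds 1649 rows and 1309 regions, of which 1122 overlap a control region and 233 overlap a member. Of the 4522 members, 227 (5.02%, 95% Clopper-Pearson interval 4.40 to 5.70) were overlapped by at least 1 bp by a knockout region, beside 4.48% of all 16995 control regions. The share was 6.19% for narrow regions at gene ends, 2.57% in gene bodies, 3.61% outside genes and 48% for regions of 3000 bp or more. Among members it was 1.41% in the lowest quartile class of control fold, 3.02% and 3.54% in the middle classes and 12.1% (10.3 to 14.2) in the top class, where the median width was 498 bp against 331 bp in the lowest. Intervals cover counting error only, and with 1 library of each genotype there is no replicate check and no test. The depth of the ChIP libraries is unknown, so fewer knockout regions and a weaker library cannot be told apart.

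**Figure D3:**
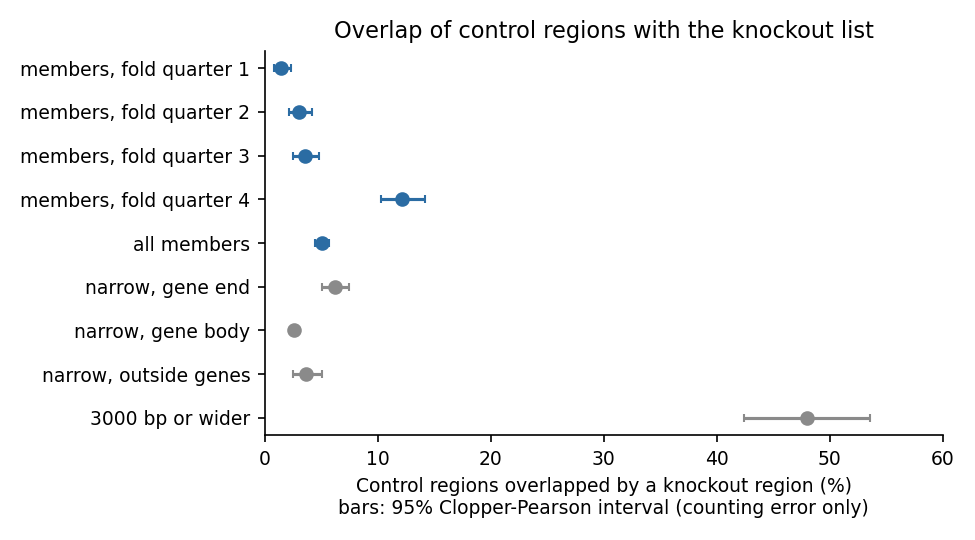
Percent of control regions overlapped by a knockout region (horizontal axis) for members by quartile class of fold and in all (blue) and for the other classes (grey), with 95% Clopper-Pearson intervals for counting error. Members in the top class of fold sit at 12.1%, those in the lower classes of fold between 1.41% and 3.54%, and all members at 5.02%. Narrow regions at gene ends sit at 6.19% and regions of 3000 bp or wider at 48%.

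Overlap was frequent at the starts of histone and immediate early genes. Of 25 histone genes with a member region, 12 were overlapped by a knockout region, among them Hist1h4c, Hist1h4d, Hist1h1e and Hist1h1c. Of 23 immediate early genes it was 9, namely Btg2, Gadd45a, Ier5, Junb, Jund, Klf6, Mcl1, Rhob and Tob1. Over all 5335 start genes it was 275 (5.15%). No member start of the 39 nuclear oxidative phosphorylation genes, the 20 mitochondrial ribosomal protein genes or the 15 glucagon and cyclic AMP response genes was overlapped, and 1 of 54 was among cytosolic ribosomal protein genes. Median control folds were 7.02 for the histone genes, 11.1 for the immediate early genes, 6.10 for the oxidative phosphorylation genes and 6.07 for all start genes. The 293 narrow knockout regions that themselves lie at gene starts had a median summit 44 bp downstream and a median fold of 5.73 in their own list.

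The RNA libraries held 22191786 to 26595249 counts in genes, and 15135 genes were tested with edgeR's quasi-likelihood test (adjusted p by Benjamini-Hochberg, threshold 0.05). Med19 was at 7.50, 10.8 and 13.4 CPM in the control and 2.91, 5.27 and 3.02 CPM in the knockout libraries (log2 fold change -1.49 ± 0.31 SE, adjusted p 0.012 by edgeR). All 12 hepatocyte markers fell, and their sum was 120800 to 134649 CPM in control and 32720 to 42569 CPM in knockout libraries. Of 12 macrophage markers 9 rose, from sums of 387 to 478 to sums of 779 to 925 CPM. In bulk RNA, fewer cells of a type and less RNA per cell cannot be told apart, and the part of these shifts in the results below was not tested. No marker of the 7 lists was at 0 in either group.

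Start genes fell more often than they rose. Of the 4697 tested, 1242 changed (26.4%), beside 25.5% of all tested genes, 799 fell (17%), beside 13.0% of all, and 443 rose (9.43%), beside 12.6% of all. The median log2 fold change was -0.09 for start genes, 0.01 for all tested genes and 0.08 for the 10438 genes with no member region, of which 11.1% fell and 14% rose. The knockout libraries lay all above the control libraries in all 443 genes that rose and all below them in 798 of the 799 that fell. These genes had passed the test on the same libraries, so this separation largely follows from that choice. It was not counted for other genes. The median size was 0.78 for the rises and -0.72 for the falls, and 153 rises and 239 falls exceeded 1 log2 unit. With library size in place of TMM scaling, the median of all genes moved to 0.60 and that of start genes to 0.50, and 2479 start genes rose while 176 fell. With upper-quartile factors 564 rose and 644 fell. Changes below are therefore relative to the TMM centre. Leaving out control library 2 or 3 or any 1 knockout library cut the counts to between 218 and 295 rises and between 442 and 525 falls.

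The share of falls was 14%, 16.7%, 17.4% and 19.5% from the lowest to the top quartile class of control fold, and the share of rises was 9.64%, 9.96%, 8.14% and 9.99%. These differences between classes were not tested. For the 113 start genes that also overlap a region of 3000 bp or more, 108 were tested, of which 60 fell (55.6%) and 3 rose, with a median of -0.97. Over all 227 tested genes that overlap such a region, start genes included, 119 fell (52.4%) and 6 rose, with a median of -0.99. Without the 113 genes, 739 start genes fell (16.1%) and 440 rose. Among the 241 tested start genes whose region was overlapped in the knockout list, 48 fell (19.9%) and 28 rose (11.6%). Of the 4456 tested start genes with no such overlap 16.9% fell and 9.31% rose.

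**Figure D4:**
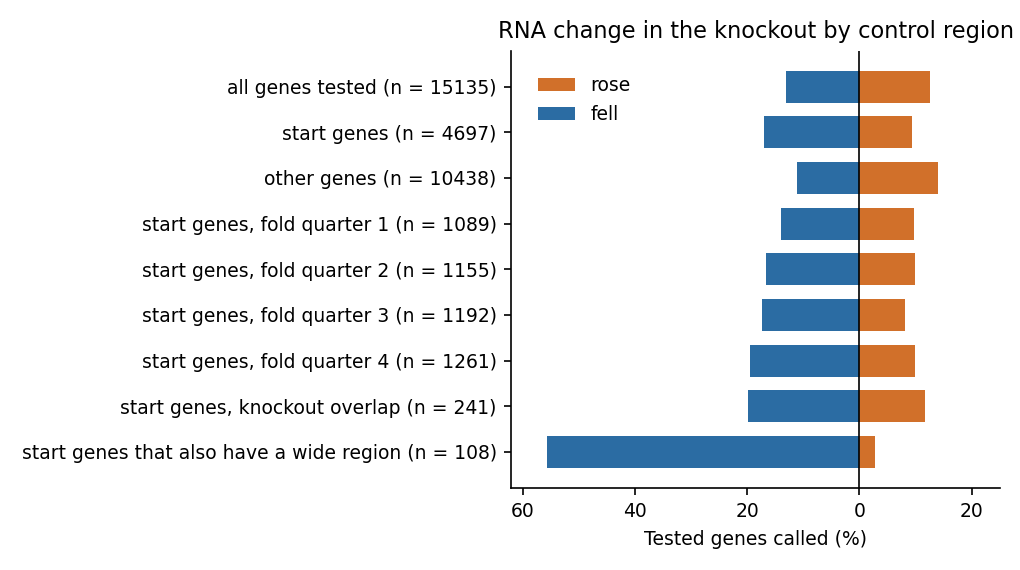
Percent of tested genes that fell (blue, to the left) or rose (orange, to the right) in the knockout at an adjusted p under 0.05 by edgeR, for all genes, start genes, genes with no member region and subsets of start genes, with the number tested beside each label. Start genes that also overlap a wide region have 55.6% falls, beside 17% for all start genes. For all tested genes that overlap a wide region, not drawn, the share is 52.4%.

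The largest falls among start genes whose 2 groups do not overlap and whose higher group reaches 5 CPM were in Hsd3b5, Serpina4-ps1, Elovl3, Phlda1 and Ak4. Elovl3, a fatty acid elongase, was at 744, 677 and 665 CPM in control and 5.0, 20.6 and 0.561 CPM in knockout libraries (log2 fold change -6.32 ± 1.28 SE, adjusted p 0.0199 by edgeR). Hsd3b5, a steroid dehydrogenase of male mouse liver, was at 11.9, 217 and 230 CPM in control and 0, 1.08 and 0 CPM in knockout libraries, so control library 1 lay far below the others. Its log2 fold change was -8.71 ± 1.78 SE (adjusted p 0.0205 by edgeR), and the adjusted p was 0.0519 to 0.0655 without control library 3 or any 1 knockout library. For Elovl3 it was 0.0528 to 0.0703 without control library 1, control library 3 or knockout library 1. With no filter on low counts both missed the threshold too (0.0741 and 0.0707). Serpina4-ps1, a pseudogene whose reads may be shared with related serpin genes, fell by 8.32 on the log2 scale. It was at 469, 175 and 187 CPM in control and 0.775, 1.81 and 0 CPM in knockout libraries. Phlda1 fell by 3.85, from 190, 77.1 and 72.4 CPM in control to 12.0, 5.91 and 5.55 CPM in knockout libraries. In both genes control library 1 lay far above the other control libraries. Ak4, an adenylate kinase of mitochondria, fell by 3.78. Ak4 was at 57.6, 86.4 and 76.7 CPM in control and 4.62, 7.24 and 4.15 CPM in knockout libraries. The summits at Hsd3b5 and Ak4 lay 823 and 508 bp downstream of the start, that at Elovl3 15 bp upstream.

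The largest rises were in Ciart, Npb, Hist1h4d, Hist1h1e and Lrp2bp. Ciart, a repressor in the circadian clock, was at 1.70, 1.62 and 1.89 CPM in control and 29.2, 34.9 and 2.18 CPM in knockout libraries, so knockout library 3 stood near the controls. Its log2 fold change of 3.67 ± 1.02 SE had an adjusted p of 0.0479 by edgeR, 0.135 with the replicate block, 0.153 with no filter on low counts and 0.095 to 0.186 without any 1 library other than knockout library 3. Npb, a neuropeptide gene, rose by 3.61 on the log2 scale, from 0.381 to 0.646 CPM in control to 4.32 to 8.69 CPM in knockout libraries. Its summit lay 989 bp from the start, near the limit of the rule. Lrp2bp rose by 2.85. Of the 10 genes described above for their high fold, Hist1h4c rose and Hhex fell. Hhex was at 38.5, 18.7 and 19.2 CPM in control and 7.04, 6.54 and 8.54 CPM in knockout libraries (log2 fold change -1.79 ± 0.30 SE, adjusted p 0.00579 by edgeR). The other 8 did not pass the test, with log2 fold changes between -1.42 for Klf6 and 0.98 for Arl4d.

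Histone genes at member starts rose together. Of 25 with a member region 16 were tested, and 12 rose and 0 fell, with a median log2 fold change of 1.79. Over all 26 histone genes tested 18 rose, beside 12.6% of all tested genes. At member starts 15 rose and 0 fell with library size in place of TMM, and leaving out 1 library gave 5 to 10 rises. The named histone genes were at low levels in control cells. Hist1h1e, a linker histone, was at 0.682, 0.715 and 1.08 CPM in control and 8.04, 8.93 and 8.54 CPM in knockout libraries (log2 fold change 3.37 ± 0.25 SE, adjusted p 0.000339 by edgeR). Hist1h4c was at 0.341, 0.572 and 0.539 CPM in control and 5.07, 2.80 and 2.96 CPM in knockout libraries. Hist1h4d rose by 3.44 and Hist1h4h, named after its values were seen, by 2.63. The groups did not overlap in any of these 4 genes, but the rule for the largest rises required this of Hist1h1e and Hist1h4d. Histone genes have near-identical coding sequences, so reads could be split between copies. Of 27 cell cycle genes 3 rose and 2 fell, beside 12.6% and 13.0% of all tested genes. Among these 27, 2 had a member region, including Pcna, the DNA clamp of replication, with a log2 fold change of 0.07 (adjusted p 0.64 by edgeR).

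Of 12 RNA polymerase subunit genes with a member region 4 rose and 1 fell, beside 12.6% and 13.0% of all tested genes. Over all 31 tested polymerase subunit genes 4 rose and 4 fell. Polr2a, the largest subunit of RNA polymerase II, was at 100.5, 122.8 and 109 CPM in control and 364, 341 and 340.1 CPM in knockout libraries (log2 fold change 1.65 ± 0.12 SE, adjusted p 0.000336 by edgeR). Its region was overlapped in the knockout list, with a control fold of 13.8 and a summit 51 bp inside the gene. Of 9 Mediator subunit genes with a member region, 1 rose and 0 fell, and over all 30 tested Mediator genes other than Med19 2 rose and 1 fell. Med28, which rose by 0.63, passed with an adjusted p of 0.0112 by edgeR and missed the threshold without control library 2, control library 3 or knockout library 1 (0.0526 to 0.0571). Of 11 pausing and elongation genes with a member region 1 rose and 1 fell, and over all 25 tested 1 rose and 3 fell. At member starts 11 polymerase, 6 Mediator and 6 pausing genes rose and 0 fell with library size alone. Rtf1, a part of the PAF complex, had the highest fold of them, 13.9, and a log2 fold change of -0.30 (adjusted p 0.0689 by edgeR).

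Ribosomal protein and proteasome genes were lower relative to the TMM centre. Of 54 cytosolic ribosomal protein genes with a member region, all tested, 38 fell and 0 rose with a median of -0.44, but with library size alone 11 rose and 0 fell. Leaving out any 1 library other than control library 1 left 14 to 25 falls, the fewest without control library 3, and upper-quartile factors left 27. Over the whole list 50 of 79 tested genes fell and 0 rose, beside 13.0% and 12.6% of all tested genes. Rplp0, a stalk protein of the large subunit, named after its values were seen, was at 665, 568 and 602 CPM in control and 445, 432 and 383 CPM in knockout libraries, and its log2 fold change of -0.54 became 0.05 with library size alone. Rpl22l1 had the highest fold of these starts, 13.3, and a log2 fold change of -0.20 (adjusted p 0.507 by edgeR). Of 16 proteasome genes 9 fell and 0 rose, against 0 falls and 8 rises with library size alone, 5 falls with upper-quartile factors and 3 to 5 falls without any 1 library other than control library 1. Over all 38 tested proteasome genes 20 fell and 1 rose. Of 10 cytosolic tRNA synthetase genes 3 fell and 0 rose, against 1 and 6 with library size alone. Over all 20 tested synthetase genes 5 fell and 0 rose.
Oxidative phosphorylation genes of the nucleus went the other way, with 13 of 39 that rose and 0 that fell (median 0.28), and 37 rises with library size alone. Leaving out 1 library gave 3 to 13 rises. Over all 90 tested genes of this list 26 rose and 0 fell, beside 12.6% and 13.0% of all tested genes. Atp5s, a coupling factor of ATP synthase, was at 5.55, 4.39 and 3.39 CPM in control and 9.78, 9.91 and 10.5 CPM in knockout libraries, and rose by 1.18. Of 20 mitochondrial ribosomal protein genes 1 rose and 0 fell, and 15 rose with library size alone.

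Genes for secreted proteins and drug metabolism fell at most of the member starts, and over the whole lists too. Of 44 tested plasma protein genes 33 fell and 1 rose, and of 35 tested drug metabolism genes 26 fell and 3 rose. Over all tested genes 13.0% fell and 12.6% rose. Of 15 plasma protein genes with a member region 12 fell and 0 rose (median -1.33), and 8 of the 15 also overlap a region of 3000 bp or more. With library size alone 9 fell and 1 rose. Apoa2, an apolipoprotein of HDL named after its values were seen, was at 8583, 7948 and 8751 CPM in control and 3081, 2638 and 2595 CPM in knockout libraries (log2 fold change -1.60 ± 0.12 SE, adjusted p 0.000339 by edgeR). Fgb, the fibrinogen beta chain, was at 14082, 4623 and 4505 CPM in control and 1803, 2130 and 1606 CPM in knockout libraries, with control library 1 above the others. It fell by 2.07 on the log2 scale (adjusted p 0.0256 by edgeR), and missed the threshold without any 1 knockout library (0.0683 to 0.0819) and with no filter on low counts (0.116). Trf, transferrin, fell by 1.84 and had the highest fold of the plasma protein starts, 16.8. It was at 46.0, 19.3 and 22.2 CPM in control and 7.52, 7.66 and 9.32 CPM in knockout libraries, again with control library 1 above the others. Of 11 drug metabolism genes 9 fell and 0 rose, and 7 fell and 1 rose with library size alone. Cyp2d10, a cytochrome P450, was at 836, 895 and 982 CPM in control and 403, 422 and 425 CPM in knockout libraries. Its log2 fold change was -1.12 ± 0.11 SE (adjusted p 0.000706 by edgeR). Cyp2e1, an ethanol-oxidising P450 named after its values were seen, fell by 2.79. Its member region was weak, with a fold of 3.38, a -log10 q of 1.44 and a summit at -432 bp. All 6 hepatocyte markers with a member region, Cyp2e1 and Fgb among them, also overlap a region of 3000 bp or more. The same holds for 2 of the 11 drug metabolism genes. The summed hepatocyte markers given above, which include Cyp2e1 and Fgb, fell beside these lists, and their part was not tested.

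Over all 34 tested hepatocyte transcription factor genes 13 fell and 3 rose, beside 13.0% and 12.6% of all tested genes. Of the 17 with a member region, 5 fell, among them Ahr, Cebpa and Onecut1, and 0 rose, and 3 also overlap a region of 3000 bp or more. With library size alone 3 of the 17 fell and 2 rose. Without control library 1, 10 fell and 2 rose, and without knockout library 1 or 3 3 fell. Cebpa, a factor of hepatocyte differentiation, had the highest fold of them, 16.7, in a region of 2437 bp with 5 summits that was overlapped in the knockout list. It was at 838, 670.1 and 702 CPM in control and 340.4, 314 and 256 CPM in knockout libraries (log2 fold change -1.28 ± 0.15 SE, adjusted p 0.00139 by edgeR). Onecut1 fell by 1.75 and Ahr fell by 1.14.

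Stress genes, those of the unfolded protein response and the integrated stress response, had member regions at 21 of 25 starts, with a median control fold of 13.4. Over all 25, 14 fell and 2 rose, beside 13.0% and 12.6% of all tested genes. Of the 21 at member starts, 5 also overlap a region of 3000 bp or more. Of these 21, 12 fell and 2 rose (median -0.98), and 6 fell and 3 rose with library size alone. Leaving out knockout library 1 left 4 falls and leaving out knockout library 3 left 5. Hsp90b1, an endoplasmic reticulum chaperone, had the highest fold, 22.3, and a log2 fold change of -0.77 (adjusted p 0.0673 by edgeR). Herpud1, a factor of endoplasmic reticulum degradation, was at 1476, 1543 and 1389 CPM in control and 421, 464 and 269 CPM in knockout libraries. It fell by 1.93 and Chac1, an enzyme of glutathione breakdown, fell by 2.19. The 2 that rose were Ddit4, an inhibitor of mTORC1, with 2.24, and Sesn2, a stress sensor, with 1.33. Ddit4 was at 9.06, 14.2 and 11.8 CPM in control and 62.8, 61.0 and 42.1 CPM in knockout libraries. Herpud1, Chac1, Ddit4 and Sesn2 were named after their values were seen.

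Immediate early genes at member starts were high in control library 1. All 23 with a member region were tested. Rhob and Gadd45b rose and Zfp36l1 fell, so 2 rose and 1 fell, beside 12.6% and 13.0% of all tested genes. In 15 of the 23 control library 1 was more than 2 times higher than both other control libraries, beside 191 of 4697 start genes (4.07%) and 774 of all 15135 tested genes (5.11%). For control libraries 2 and 3 it was 0 of 23 each. Btg2, an antiproliferative gene, was at 737, 13.9 and 12.5 CPM in control and 42.4, 60.2 and 31.3 CPM in knockout libraries. Its log2 fold change was -2.51 ± 1.65 SE (adjusted p 0.312 by edgeR), and without control library 1 it was 1.75 (adjusted p 0.00542 by edgeR). Ier2 was at 242, 26.0 and 25.2 CPM in control and 29.5, 29.3 and 19.9 CPM in knockout libraries. Fos, an AP-1 subunit, was at 30.4, 3.43 and 2.37 CPM in control and 1.13, 6.89 and 4.49 CPM in knockout libraries. Control library 1 was the highest of the 6 for all 3 genes. Ier2 and Fos were named after their values were seen.

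**Figure D5:**
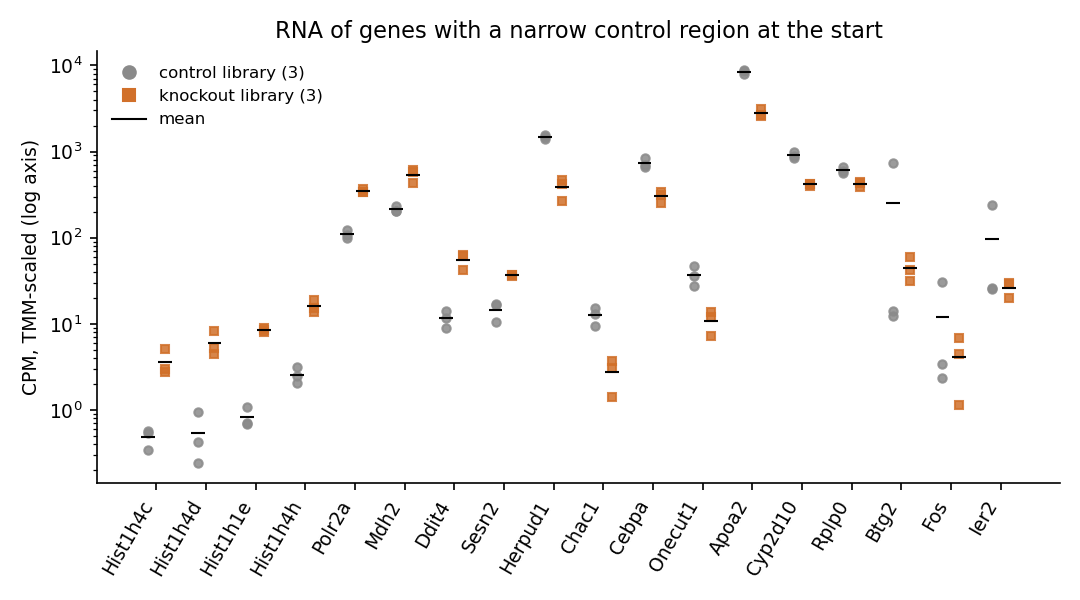
TMM-scaled CPM on a log axis for 18 genes with a narrow control region at the start; grey circles are the 3 control libraries, orange squares the 3 knockout libraries and short lines the means. The 4 histone genes, Polr2a, Mdh2, Ddit4 and Sesn2 have all knockout points above all control points, and in Btg2, Fos and Ier2 1 control point lies far above the other 2.

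Of 15 glucagon and cyclic AMP response genes with a member region, Per1 rose and Gcgr and Sik2 fell, so 3 of 15 were called beside 25.5% of all tested genes. With library size alone 11 rose and 0 fell. Gcgr, the glucagon receptor, was at 413, 460.4 and 484 CPM in control and 227, 259 and 241 CPM in knockout libraries, with a log2 fold change of -0.90 ± 0.12 SE (adjusted p 0.00199 by edgeR, 0.0699 with library size alone). Per1, a clock gene, missed the threshold without control library 2 or 3 or knockout library 1 or 2 (0.123 to 0.146). Of 19 gluconeogenesis genes Gpi1, Slc25a11 and Mdh2 rose and Slc25a13, Pcx, Gk and Slc25a10 fell, against 13 rises and 1 fall with library size alone. Pcx, pyruvate carboxylase, missed the threshold without any 1 library other than control library 1 (0.0711 to 0.122). Mdh2, malate dehydrogenase of mitochondria, rose by 1.34, from 203 to 232 CPM in control to 434 to 604 CPM in knockout libraries. G6pc and Pck1, the glucose-6-phosphatase and PEP carboxykinase genes, are not members, because their starts lie in regions of 12056 and 8620 bp, with summits 153 and 155 bp inside the gene. The nearest control summit to Med19 lay at -27767 bp from its start.

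Of 8 snoRNA host genes 7 were tested, and Snhg8 and Gas5 fell and 0 rose, beside 13.0% of all tested genes that fell, with 1 fall left with library size alone. Of 10 p53 target genes 2 rose and 0 fell, beside 12.6% of all tested genes that rose, with 6 rises with library size alone. Among markers of other cell types a member region was found at Cd68 for macrophages, Reln for stellate cells and Sox9 for bile duct cells, and at none of the endothelial, lymphocyte or erythroid markers. Cd68 rose by 0.81 on the log2 scale, from 10.0 to 11.3 CPM in control to 17.05 to 20.2 CPM in knockout libraries.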

How the data were processed

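RNA was measured in 3 control and 3 knockout libraries and ChIP in 1 library of each genotype. The deposited RNA table gives raw counts for each gene (mm10). The submitters' processing notes list HTSeq 0.6.0, HISAT2 2.1.0 and Bowtie2 2.2.3 without roles. The authors' own mean signal, fold (ratio), log2 fold change and p-value columns of that deposited table were not used. Each deposited ChIP list gives a score, a fold (ratio) over background, -log10 p and -log10 q for each summit. For ChIP the submitters' processing notes list MACS2, BWA, SAMtools, DESeq2 and deepTools, with no versions. Peaks were called on each library separately, and no source used here says whether an input library was used. No column belonged to a sample outside the series (0).

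Counts were filtered with filterByExpr, scaled by TMM and tested over all genes with edgeR 4.0.16 (quasi-likelihood, robust, two-sided, genotype only) in R 4.3.3, with Benjamini-Hochberg adjustment at 0.05. The fit was tested on simulated data. CPM uses TMM-scaled library sizes. DESeq2 1.42.0, other scalings, no filter, a replicate block and leaving out each library were alternatives. The member regions, gene lists and the rule for named genes were chosen with earlier results of these data known. The rule took the 10 protein-coding starts with the highest fold, 6 small RNA genes by fold, the 5 largest rises and 5 largest falls, the member of each list with the highest fold, G6pc, Pck1 and Med19, and up to 5 regions overlapped in the knockout list. Sequences are RefSeq, GRCm38.p6. Some members taken by the rule and 1 searched motif are not reported here by name.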

Additional observations from a re-analysis of the deposited data

How the results depend on the processing

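With library size alone in place of TMM, 8328 genes changed, 2479 start genes rose and 176 fell. Leaving out 1 library gave 2236 to 4921 changed genes, 218 to 619 start genes that rose and 442 to 997 that fell; the highest of each was without control library 1. The 4 other fits on the 6 libraries gave these counts within 1.5 times of the main ones, as did a summit limit of 250 bp, the nearest gene alone and, chosen after seeing the data, leaving out genes that a wide region overlaps. The replicate numbers do not pair the libraries by the labels, and same-numbered libraries correlated at 0.134, 0.0497 and 0.122, although each correlated best with its own number. The replicate block gave 3468 changed genes, 394 start genes that rose and 710 that fell. With a summit limit of 250 bp the median summit lay at 54 bp and 91.4% of regions had a protein-coding gene nearest. With a -log10 q of at least 3 the latter was 88.6%, and 5.70% of regions were overlapped in the knockout list. Named genes changed direction as follows. With library size alone the log2 fold change was 0.14 for Jund, 0.40 for Rpl22l1, 0.28 for Rtf1, 0.047 for Rplp0 and 0.21 for Pcx. Leaving out 1 library moved it from -0.68 to 0.021 for Jund, -0.24 to 0.68 for Nabp1, -3.08 to 1.75 for Btg2, -2.36 to 0.031 for Ier2 and -2.12 to 0.52 for Fos. For Btg2 it was 0.21 with the replicate block. The cause was not tested. List counts under each setting were added after seeing the data; leaving out 1 library gave 5 to 10 rises of histone genes and 14 to 37 falls of ribosomal protein genes, 3 to 9 of proteasome genes, 3 to 10 of hepatocyte transcription factors, 10 to 13 of plasma protein genes and 8 to 10 of drug metabolism genes at member starts. With the replicate block 7 histone genes rose, and 25 ribosomal protein and 5 proteasome genes fell. The number of reads behind each ChIP list is unknown, which limits the ChIP overlap.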
